A study of Mus musculus with 24 samples.

Results

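The genes described here are a list of 44 mouse cell cycle and replication genes, chosen by name for their known part in DNA replication or mitosis. Of these, 43 were among the 17097 genes that the arrays measured with probe sets naming a single gene, and Ccnb1 was not analysed here. Where a gene had several probe sets, the one with the highest mean of the 24 arrays stood for it. The list falls into 10 G1/S core genes (Mcm2 to Mcm7, Rrm1, Rrm2, Pcna and Cdc6), 6 other G1/S genes (Tyms, Cdt1, Gins2, Ccne1, Ccne2 and E2f1) and 28 G2/M and kinetochore genes. Cdc6, which loads the replicative helicase, lay below the detection floor of 6.27 on the log2 scale on all 24 arrays, with group means from 5.59 to 6.02. Ccne2, a cyclin of the G1/S transition, did so as well, with group means from 4.49 to 4.71. This left 41 members to test among 11844 genes, 14 of G1/S and 27 of G2/M.

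Messenger RNA was measured with Affymetrix mouse arrays in what the labels call neural fraction cells, isolated from the stroma of oral tumours. The tumours were grown orthotopically from the human line SCC25, an oral squamous carcinoma, in NOD-SCID gamma (NSG) mice, which lack mature lymphocytes. The design asks how a hairpin against EGR2 or GAL in the tumour cells, and a diet rich in palmitic acid (PA), a saturated fatty acid, go with expression in these stromal cells. The tumour cells carried the non-targeting hairpin PLKO, the hairpins shEGR2_40.9 or shEGR2_38.9 against EGR2, a zinc finger transcription factor, or the hairpin shGAL against GAL, the gene of the neuropeptide galanin. Each hairpin was studied under a control diet and under a PA-rich diet, which gives 8 groups of 3 arrays, all from NSG hosts bearing the same tumour line. GAL was targeted by a single hairpin. The series calls the 3 arrays of a group technical replicates, so p-values here measure only the spread between these arrays.

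Dividing cells copy their DNA in S phase and separate the copies in mitosis, and each step has its own wave of transcription. At the G1/S boundary E2F factors switch on the genes of the MCM helicase, of nucleotide supply and of the replication fork. Later, the MuvB complex with B-MYB and FOXM1 acts through CHR elements on the genes of mitotic kinases, kinetochores and the spindle. Neural cells of adult nerve are mostly quiescent, and Schwann cells re-enter the cycle after injury.

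Promoter sequences are shown because the list divides into G1/S core and G2/M genes, whose promoters held the searched words in different shares. RefSeq promoter windows of the mouse build GRCm38.p6, from 250 bases before to 50 bases after the gene start, were found for 35 of the 44 members, in 37 windows. 3 kinds of word were searched on both strands: for E2F the word TTCCCGC or its alternative TTGGCGC, for the CHR element the word TTTGAA, and for the NF-Y box the word CCAAT. Read on the other strand, the NF-Y word can share letters with the alternative E2F word. An E2F word was present in 7 of 10 G1/S core windows (70.0%) and 3 of 23 G2/M windows (13.0%), against 6.8% of all 32851 windows. A CHR word was present in 17 of 23 G2/M windows (73.9%) and 1 of 10 G1/S core windows (10%), against 17.9% of all windows. CCAAT stood in 90.0% of the G1/S core windows and 87.0% of the G2/M windows, against 37.4% overall. Of the 4 windows of the other G1/S genes, 1 held an E2F word (25.0%) and 0 held a CCAAT or a CHR word, so that over all 14 G1/S windows the shares were 57.1% for E2F and 64.3% for CCAAT. With only the bases before the start, the CHR share of the G2/M windows was 34.8%, against 16% of all windows, so that part of their CHR words lie after the start. A match is a description of letters and does not show that a factor binds.

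The 120 bases before the start are printed for 8 members, chosen after their values were seen, with the searched words in capitals. Mcm6 at chr1:128359706-128359825 (minus strand), Rrm1 at chr7:102441575-102441694 (plus strand), Rrm2 at chr12:24708134-24708253 (plus strand), Cdc20 at chr4:118437344-118437463 (minus strand), Cdk1 at chr10:69352913-69353032 (minus strand), Kif11 at chr19:37376262-37376381 (plus strand), Ube2c at chr2:164769809-164769928 (plus strand) and Birc5 at chr11:117849117-117849236 (plus strand) are each read from 5′ to 3′ along the gene. Mcm6 and Rrm1, genes of G1/S, carry E2F words with CCAAT words, and Rrm2 has a CCAAT word alone. Cdc20, Cdk1, Kif11 and Ube2c, genes of mitosis, carry CHR and CCAAT words, and Birc5 has none of these letters in this stretch.
Mcm6: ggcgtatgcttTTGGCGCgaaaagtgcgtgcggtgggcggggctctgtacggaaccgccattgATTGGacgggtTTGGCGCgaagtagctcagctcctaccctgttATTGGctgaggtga
Rrm1: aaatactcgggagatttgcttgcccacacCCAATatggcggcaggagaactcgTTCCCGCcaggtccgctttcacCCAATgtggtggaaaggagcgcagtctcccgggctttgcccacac
Rrm2: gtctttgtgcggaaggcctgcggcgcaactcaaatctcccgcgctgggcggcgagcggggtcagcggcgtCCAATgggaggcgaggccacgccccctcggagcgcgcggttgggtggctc
Cdc20: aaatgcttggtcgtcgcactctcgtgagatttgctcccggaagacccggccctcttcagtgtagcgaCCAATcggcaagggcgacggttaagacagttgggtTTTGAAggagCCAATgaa
Cdk1: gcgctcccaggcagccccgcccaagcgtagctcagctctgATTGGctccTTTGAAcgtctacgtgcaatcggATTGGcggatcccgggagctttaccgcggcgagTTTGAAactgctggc
Kif11: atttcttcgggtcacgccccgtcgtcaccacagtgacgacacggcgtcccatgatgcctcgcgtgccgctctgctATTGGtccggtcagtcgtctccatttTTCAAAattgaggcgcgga
Ube2c: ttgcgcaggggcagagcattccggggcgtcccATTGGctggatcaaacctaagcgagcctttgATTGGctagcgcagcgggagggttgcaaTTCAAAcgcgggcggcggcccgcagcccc
Birc5: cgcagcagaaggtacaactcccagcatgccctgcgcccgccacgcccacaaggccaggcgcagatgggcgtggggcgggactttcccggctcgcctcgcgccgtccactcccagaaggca

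The array shEGR2_38.9 control-diet replicate 3 differed from the others, with an array mean of 7.09 against 7.15 to 7.17 elsewhere and a correlation of 0.978 with its own group. Its 3′ Gapdh control probe sets exceeded the 5′ ones by 0.76 on the log2 scale, against -0.12 to 0.08 on the other 23 arrays. Of 8 Schwann and glial markers analysed, 5 were above the floor, among them Sox10, Erbb3 and Pmp22, while S100b, Gfap and Foxd3 were below it. Of 10 neuronal markers, 7 were below the floor. All 15 keratinocyte markers analysed were above the floor, but their levels ranged widely. Group means were 12.77 to 13.0 for Krt5, 7.66 to 8.03 for Ivl and 6.40 to 7.33 for Krt1. All 15 endothelial markers were above the floor. The tumour cells were human and the probe sets are for mouse genes. Whether human tumour RNA adds to a probe set's signal, for the keratins or for the members, was not tested, so a level here is that of the fraction and not surely of stromal cells alone. In bulk RNA, fewer cells of a type and less RNA per cell cannot be told apart.

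Among the 41 tested members, the group with the highest mean was the same for all 27 G2/M genes, namely shEGR2_40.9 on the PA-rich diet. The lowest group mean of a G2/M gene lay with shGAL on the control diet for 18 genes, with PLKO on the control diet for 7 and with shGAL on the PA-rich diet for 2. Of the 14 G1/S genes, 11 had their lowest group mean with shGAL on the control diet. Their highest means were spread over shEGR2_38.9 on the PA-rich diet (5 genes), shEGR2_40.9 on the PA-rich diet (4), PLKO on the control diet (3) and shEGR2_38.9 on the control diet (2). Group means ranged most widely for Cenpe (1.30 on the log2 scale), a kinesin that carries chromosomes to the spindle equator, and for Birc5 (1.10), the survivin subunit of the chromosomal passenger complex. They ranged least for Ccne1 (0.08), the cyclin E1 gene. A difference of 1 on this scale is a 2-fold difference.

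**Figure D1:**
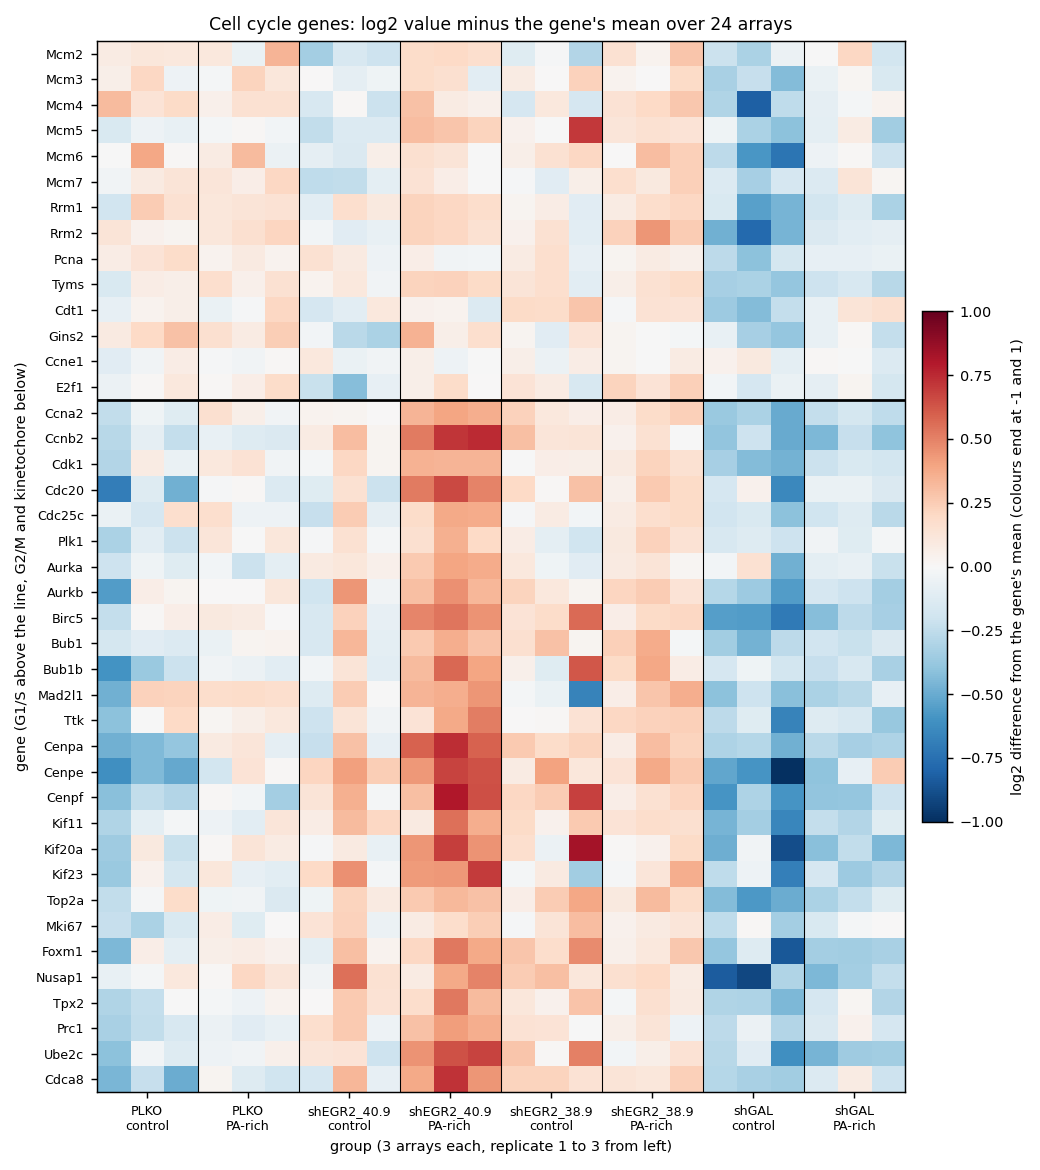
Log2 value of each of the 41 tested genes minus its own mean over 24 arrays, by array in 8 groups of 3 (G1/S genes above the line, G2/M and kinetochore genes below; red higher, blue lower). The G2/M rows are reddest with shEGR2_40.9 on the PA-rich diet, and the G1/S rows are bluest with shGAL on the control diet.

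The mean log2 value over the 9 tested G1/S core genes was 9.70 ± 0.06 (SD, n = 3) with PLKO on the control diet, and on the other diet 9.72 ± 0.04. It was 9.53 ± 0.03 and 9.75 ± 0.06 with shEGR2_40.9, and 9.65 ± 0.03 and 9.78 ± 0.05 with shEGR2_38.9, in the same order of diets. With shGAL it was 9.26 ± 0.12 and 9.54 ± 0.08. The control-diet arrays of shGAL, from 9.13 to 9.37, thus lay below those of every other group, and the other 7 groups spanned 9.47 to 9.82.

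The mean over the 27 G2/M genes followed another order. It was 8.57 ± 0.14 with shGAL and 8.75 ± 0.14 with PLKO on the control diet, and 8.72 ± 0.03 and 8.94 ± 0.02 in the same hairpins on the PA-rich diet. These 4 groups spanned 8.42 to 8.96. With the EGR2 hairpins it was 9.01 ± 0.16 (shEGR2_40.9) and 9.08 ± 0.04 (shEGR2_38.9) on the control diet, and 9.36 ± 0.10 and 9.09 ± 0.06 on the PA-rich diet. The 3 arrays of shEGR2_40.9 on the PA-rich diet, from 9.25 to 9.44, lay above all other arrays, while the shEGR2_40.9 control-diet arrays (8.92, 9.20 and 8.93) overlapped those of PLKO on the PA-rich diet. These means describe chosen members and were not tested. Neighbouring groups that lie within 1 SD of each other do not differ beyond their spread.

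**Figure D2:**
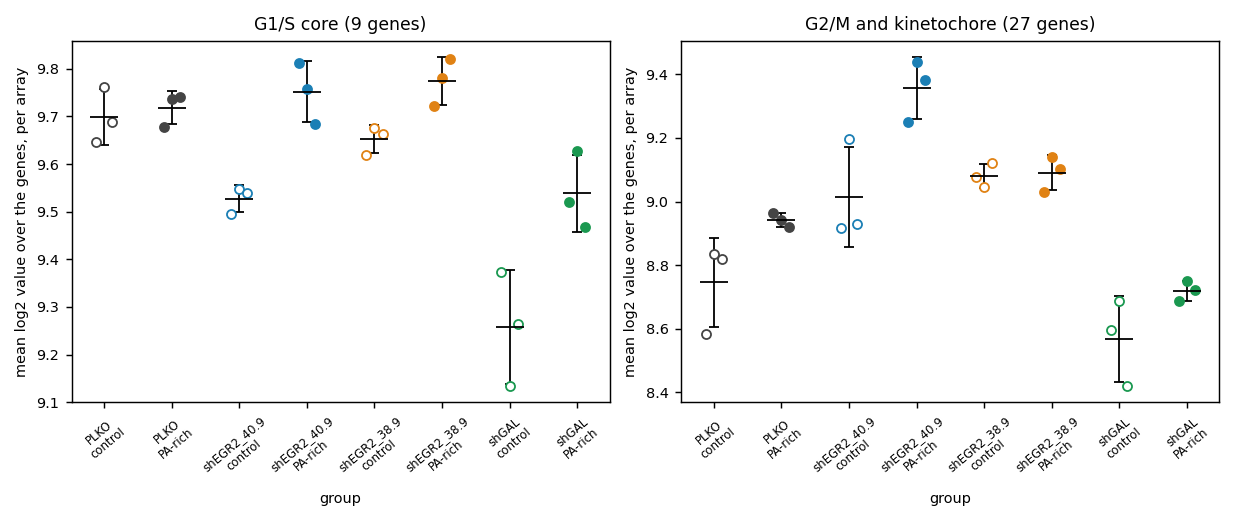
Mean log2 value per array over the 9 G1/S core genes (left) and the 27 G2/M and kinetochore genes (right) in each group; points are arrays (open for control diet, filled for PA-rich diet), bars mean and SD of 3. The lowest G1/S values are the shGAL control-diet arrays at 9.13 to 9.37, and the highest G2/M values are the shEGR2_40.9 PA-rich arrays at 9.25 to 9.44.

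In stroma of EGR2 hairpin tumours under the control diet, kinetochore and other mitotic genes stood higher than with PLKO. Of the 41 members, 15 rose and 3 fell, against 25.2% of all genes called in either direction, 10.8% higher and 14.5% lower (limma, Benjamini-Hochberg adjusted p under 0.05). The 15 that rose were all G2/M genes, out of 27, and the 3 that fell, Mcm4, Mcm2 and Gins2, were all G1/S genes, out of 14. The share of members that fell, 3 of 41, was below that of all genes. The median change was 0.32 on the log2 scale over the G2/M genes and -0.09 over the 9 G1/S core genes, beside -0.06 over all genes tested, to which the G1/S core was close. This comparison used the mean of the 2 EGR2 hairpins. With shEGR2_40.9 alone 26 of 27 G2/M genes were higher than with PLKO (median 0.24) and 0 of 9 G1/S core genes were, and with shEGR2_38.9 alone the counts were 26 of 27 (median 0.33) and 3 of 9.

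The kinetochore genes held the largest changes. Cenpe, the mitotic kinesin CENP-E, read 7.37, 7.55 and 7.48 with PLKO. It read 8.20, 8.39 and 8.23 with shEGR2_40.9 and 8.07, 8.39 and 8.10 with shEGR2_38.9, so that every EGR2 hairpin array lay above every PLKO array. The change was 0.76 (SE 0.12, adjusted p = 7.52e-05). Cenpf, a large kinetochore protein of late G2, read 8.72, 8.88 and 8.84 with PLKO, 9.27, 9.49 and 9.11 with shEGR2_40.9 and 9.34, 9.39 and 9.81 with shEGR2_38.9. The groups did not overlap, and the change was 0.59 (SE 0.12, adjusted p = 0.000619). Cenpa, the histone H3 variant that marks centromeres, read 9.39, 9.44 and 9.49 with PLKO, 9.64, 10.17 and 9.79 with shEGR2_40.9 and 10.13, 10.06 and 10.10 with shEGR2_38.9. It rose by 0.54 (SE 0.09, adjusted p = 5.79e-05), again with no overlap.

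Of the spindle checkpoint genes Bub1b, the kinase-like BUBR1, read 7.64, 7.86 and 8.02 with PLKO and 8.11 to 8.86 with the EGR2 hairpins, and rose by 0.49 (SE 0.12, adjusted p = 0.00328). Bub1, Ttk and Mad2l1 changed by 0.23, 0.08 and -0.10 and did not pass the test. Cdca8, which encodes borealin of the chromosomal passenger complex, rose by 0.51 (SE 0.10, adjusted p = 0.00047). Cdc20, the activator of the anaphase-promoting complex, rose by 0.49, and Ube2c, its ubiquitin-conjugating partner, by 0.33. Among the cyclins Ccnb2, cyclin B2, read 8.26, 8.44 and 8.29 with PLKO against 8.56 to 8.84 on the 6 EGR2 hairpin arrays, and rose by 0.36 (SE 0.08, adjusted p = 0.00165). Ccna2, cyclin A2, rose by 0.21, whereas its kinase partner Cdk1 changed by 0.15 and did not pass. The spindle genes Prc1, Kif11 and Tpx2 rose by 0.36, 0.32 and 0.32, and the kinase Plk1 by 0.19. The transcription factor Foxm1 rose by 0.36 with the probe set used, but its other probe sets above the floor both changed by 0.08, and the call was lost in 9 of 15 alternatives. Mki67, the Ki-67 antigen, read 10.13, 10.05 and 10.22 with PLKO and 10.31 to 10.68 with the EGR2 hairpins, with no overlap, and rose by 0.36 (SE 0.08, adjusted p = 0.00277).

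On the replication side, Mcm4, a subunit of the MCM helicase, read 9.05, 8.86 and 8.92 with PLKO, 8.57, 8.74 and 8.51 with shEGR2_40.9 and 8.56, 8.84 and 8.56 with shEGR2_38.9. It fell by 0.31 (SE 0.10, adjusted p = 0.0229), and the highest EGR2 hairpin array lay just below the lowest PLKO array. Mcm2, another helicase subunit, fell by 0.29 (SE 0.09, adjusted p = 0.0221), and Gins2, a subunit of the GINS complex that activates the helicase, fell by 0.29 (SE 0.09, adjusted p = 0.0163). Gins2 overlapped between groups, at 9.52 to 9.72 with PLKO and 9.11 to 9.57 with the EGR2 hairpins. Rrm1, Rrm2, Pcna and Tyms, which supply nucleotides or clamp the polymerase, were within 0.10 of PLKO and did not pass.

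The calls for Cenpe, Cenpf, Cenpa, Cdca8, Bub1b, Ccnb2, Prc1 and Mki67 held in all alternatives run, with each array left out in turn among them. Without PLKO control-diet replicate 1, which had the lowest G2/M mean of its group (8.58, against 8.84 and 8.82), 9 members were called, 8 higher and 1 lower. With the scan batch as a block 12 rose and 1 fell, and 6 of the 18 calls were lost, those of Mcm2, Mcm4, Ccna2, Plk1, Foxm1 and Ube2c (limma, adjusted p = 0.0594, 0.186, 0.084, 0.0645, 0.205 and 0.177). Without single PLKO control-diet arrays Mcm4 (replicate 1 or 3), Mcm2 (any) and Gins2 (replicate 2 or 3, adjusted p up to 0.101) lost theirs, as did Cdc20, Kif11, Tpx2, Ccna2, Ube2c, Plk1 and Foxm1 without replicate 1. In the 1 scan batch that PLKO shared with shEGR2_40.9, with 1 array of each, 26 of 27 G2/M genes were higher (median 0.34) and 7 of 9 G1/S core genes lower (median -0.09). The median over all genes tested in that pair was -0.01. The PLKO array of that batch is replicate 1, which had the lowest G2/M mean. In the batch shared with shEGR2_38.9, also with 1 array of each, 24 of 27 were higher (median 0.17) and 6 of 9 lower (median -0.13). The median over all genes tested in that pair was -0.08, so the G1/S core lay close to it. Without shEGR2_38.9 control-diet replicate 3, the array that stood apart, 14 rose and 4 fell. The shares of all genes called in the alternative fits are not given here, and that of the main fit does not apply to them. Markers of other cells moved with this comparison. Of 15 endothelial markers 14 rose, with a median change of 1.59 and mean levels per array of 9.38 to 10.1 with the EGR2 hairpins against 8.13 to 8.61 with PLKO. Of 7 pericyte and smooth muscle markers 4 rose, of 4 macrophage markers 3 rose, of 4 fibroblast markers 2 rose and 1 fell, and of 15 keratinocyte markers 4 fell. Of 5 Schwann and glial markers 1 rose and 1 fell, and of 3 neuronal markers 1 fell. Their part in the result was not tested.

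On the PA-rich diet, fewer of the mitotic genes passed the test between the EGR2 hairpins and PLKO, and no G1/S member did. Of 41 members 4 rose, Cenpf, Ccnb2, Cdca8 and Cenpa, against 1.11% of all genes called, 0.794% higher and 0.321% lower. The median change was 0.26 over the G2/M genes, all 27 of which were higher, and 0.04 over the G1/S core, beside -0.01 over all genes tested. At an unadjusted p under 0.05, 19 G2/M genes were higher and 0 of 14 G1/S genes differed (limma). The share of all genes at this looser threshold is not given here, so these counts stand without a background. Ccnb2 read 8.46, 8.40 and 8.38 with PLKO, 9.05, 9.25 and 9.27 with shEGR2_40.9 and 8.57, 8.68 and 8.53 with shEGR2_38.9. It rose by 0.48 (SE 0.08, adjusted p = 0.00249), and both hairpins lay above PLKO without overlap, shEGR2_40.9 by more. Cenpa read 9.96, 9.99 and 9.79 with PLKO, 10.46, 10.61 and 10.47 with shEGR2_40.9 and 9.95, 10.19 and 10.10 with shEGR2_38.9, and rose by 0.38 (SE 0.09, adjusted p = 0.0264), with overlap for shEGR2_38.9 only. The change of Cenpf was 0.48 (SE 0.12, adjusted p = 0.0391) and that of Cdca8 0.44 (SE 0.10, adjusted p = 0.0239).

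Of these 4 calls only that of Ccnb2 held in all alternatives. With the scan batch as a block 1 member was called, and with only the arrays compared 15 were, 14 of them G2/M genes. The shares of all genes called in these fits are not given here, and that of the main fit does not apply to them. Leaving out an array moved the count to 1 (PLKO replicate 2 or 3, shEGR2_40.9 replicate 2 or shEGR2_38.9 replicate 3), to 2 (PLKO replicate 1 or shEGR2_38.9 replicate 2), all on the PA-rich diet, or to 7 (shEGR2_38.9 control-diet replicate 3). Across the 2 hairpins alone the G2/M median was 0.37 with shEGR2_40.9 and 0.16 with shEGR2_38.9. Of 15 endothelial markers 0 passed the test on this diet (5 higher at an unadjusted p under 0.05, limma), with a median change of 0.28. Of the other marker lists, 1 of 7 pericyte and smooth muscle and 1 of 3 neuronal markers rose and 1 of 15 keratinocyte markers fell, and their part in the result was not tested.

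**Figure D3:**
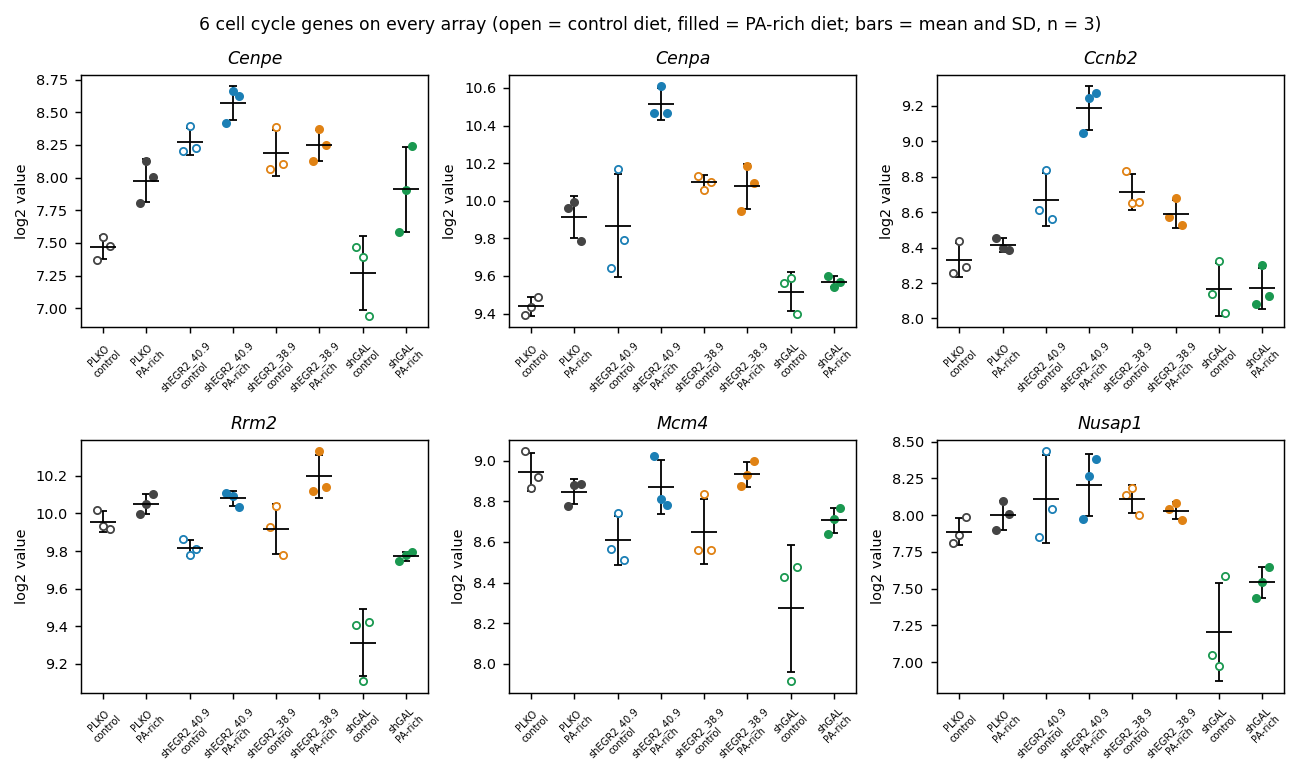
Log2 value of Cenpe, Cenpa, Ccnb2, Rrm2, Mcm4 and Nusap1 on every array (open points control diet, filled points PA-rich diet; grey PLKO, blue shEGR2_40.9, orange shEGR2_38.9, green shGAL; bars mean and SD, n = 3). Cenpe, Cenpa and Ccnb2 are higher with the EGR2 hairpins than with PLKO on the control diet, and Rrm2, Mcm4 and Nusap1 are lowest with shGAL on the control diet.

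With shGAL on the control diet, genes of DNA replication stood lower than with PLKO, together with some genes of mitosis. Of the 41 members 16 fell, against 17% of all genes called, 7.15% higher and 9.84% lower. At an unadjusted p under 0.05, 20 were lower and 0 higher (limma), with no share of all genes at that threshold given. The 16 comprised 7 of 9 G1/S core genes, 3 of 5 other G1/S genes and 6 of 27 G2/M genes. The median change was -0.41 over the G1/S core and -0.20 over the G2/M genes, beside -0.01 over all genes tested. This comparison shares its PLKO arrays with that of the EGR2 hairpins.

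The subunits of ribonucleotide reductase, which makes the building blocks of DNA, both fell. Rrm2 read 10.02, 9.93 and 9.92 with PLKO and 9.40, 9.11 and 9.42 with shGAL, a clear separation, and fell by 0.64 (SE 0.08, adjusted p = 1.25e-05). Rrm1 read 9.58, 10.02 and 9.92 with PLKO and 9.61, 9.22 and 9.30 with shGAL, so that 1 array of each group overlapped, and fell by 0.46 (SE 0.10, adjusted p = 0.00383). Of the 6 helicase subunits Mcm4, Mcm6, Mcm3 and Mcm7 fell, by 0.67, 0.66, 0.40 and 0.27, while Mcm2 and Mcm5 did not pass. Mcm4 read 9.05, 8.86 and 8.92 with PLKO and 8.43, 7.92 and 8.48 with shGAL (SE 0.11, adjusted p = 0.000317). Mcm6 read 8.61, 8.99 and 8.62 with PLKO and 8.35, 8.02 and 7.88 with shGAL (SE 0.12, adjusted p = 0.000632). Neither gene overlapped between groups. Pcna, the sliding clamp of the polymerase, read 11.53, 11.60 and 11.64 with PLKO and 11.20, 11.05 and 11.28 with shGAL, and fell by 0.41 (SE 0.07, adjusted p = 0.000446). Gins2, the licensing factor Cdt1 and the thymidylate synthase gene Tyms fell by 0.46, 0.35 and 0.34.

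Among the mitotic genes, Nusap1, a microtubule-bundling protein of the spindle, read 7.81, 7.86 and 7.99 with PLKO and 7.05, 6.97 and 7.58 with shGAL, and fell by 0.68 (SE 0.14, adjusted p = 0.00166). Birc5 read 9.54, 9.79 and 9.84 with PLKO and 9.23, 9.22 and 9.07 with shGAL, and fell by 0.55 (SE 0.11, adjusted p = 0.00109). The groups did not overlap for either gene. Top2a, the topoisomerase that untangles chromosomes, fell by 0.48, Kif11, the spindle motor Eg5, by 0.35, Cdk1 by 0.32 and Ccna2 by 0.26. The kinetochore genes Cenpa, Cenpe and Cenpf, which led the comparison of the EGR2 hairpins, changed by 0.08, -0.20 and -0.18 here and did not pass.

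The calls for Mcm3, Mcm4, Mcm6, Rrm2, Pcna, Cdt1, Gins2, Birc5 and Nusap1 held in all alternatives run. Those of Kif11, Mcm7, Ccna2, Cdk1 and Rrm1 were lost with only the arrays compared, and all but that of Rrm1 also without single arrays. The calls of Tyms and Top2a were lost with the mean of all probe sets (adjusted p = 0.478 and 0.0903), where their changes were -0.06 and -0.16. A further probe set above the floor changed by 0.01 for Tyms and -0.03 for Top2a. In the scan batch that PLKO and shGAL shared, with 1 array of each, all 9 G1/S core genes were lower (median -0.38). In the same pair 24 of 27 G2/M genes were lower (median -0.40). With the scan batch as a block 20 members fell, 10 of G1/S and 10 of G2/M, with no share of all genes in that fit given. Endothelial markers showed 1 rise and 3 falls of 15, with mean levels per array of 7.97 to 8.48 with shGAL against 8.13 to 8.61 with PLKO, and 2 of 7 pericyte and smooth muscle markers fell. Of 4 macrophage markers 1 rose and 2 fell, of 4 fibroblast markers 1 fell (median -0.53), of 15 keratinocyte markers 2 fell and of 5 Schwann and glial markers 1 rose. Their part in the result was not tested.

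On the PA-rich diet 8 members fell with shGAL, against 12.4% of all genes called, 7.6% higher and 4.77% lower. They were Rrm1, Rrm2 and Tyms of G1/S and Nusap1, Birc5, Cenpa, Ccna2 and Cdk1 of G2/M. The median change was -0.14 over the G1/S core and -0.22 over the G2/M genes, of which 26 of 27 were lower, beside -0.04 over all genes tested. Rrm2 read 9.998, 10.05 and 10.10 with PLKO and 9.75, 9.78 and 9.79 with shGAL, without overlap, and fell by 0.28 (SE 0.08, adjusted p = 0.028). Birc5 read 9.87, 9.86 and 9.78 with PLKO and 9.35, 9.51 and 9.45 with shGAL, also without overlap, and fell by 0.40 (SE 0.11, adjusted p = 0.0149). Nusap1, Cenpa, Rrm1, Ccna2 and Cdk1 fell by 0.46, 0.35, 0.34, 0.29 and 0.26. Tyms fell by 0.34 (SE 0.08, adjusted p = 0.00419), a call that was lost with the mean of all probe sets (adjusted p = 0.328).

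The count of 8 moved with single arrays of the groups compared. It was 3, 2 and 5 without PLKO replicate 1, 2 and 3 and 3, 4 and 4 without shGAL replicate 1, 2 and 3, all on the PA-rich diet. With the scan batch as a block 13 members fell, 2 of G1/S and 11 of G2/M, and with only the arrays compared 15 fell. The shares of all genes called in these fits are not given here. In the shared scan batch, with 1 array of each hairpin, all 9 G1/S core genes (median -0.26) and 24 of 27 G2/M genes (median -0.22) were lower. Of 15 endothelial markers 1 rose and of 7 pericyte and smooth muscle markers 2 fell. Of 15 keratinocyte markers 1 rose and 2 fell, of 5 Schwann and glial markers 1 rose and 1 fell, and of 3 neuronal markers 1 rose. Their part in the result was not tested.

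Within each hairpin, the PA-rich diet was compared with the control diet to learn whether the diet moved cell cycle genes of the stroma. With PLKO 1 of 41 members rose, Cenpa, against 1.18% of all genes called, 0.371% higher and 0.811% lower. At an unadjusted p under 0.05, 8 were higher and 0 lower (limma), with no share of all genes at that threshold given. Cenpa read 9.39, 9.44 and 9.49 on the control diet and 9.96, 9.99 and 9.79 on the PA-rich diet, without overlap, and rose by 0.48 (SE 0.10, adjusted p = 0.0145). The call was lost without control-diet replicate 1 or 2 or PA-rich replicate 1 or 2 (0 members called in each) and with the mean of all probe sets. With the replicate number as a block, 1 factor over all hairpins, 2 members were called. Leaving out shGAL control-diet replicate 3, or replicate 3 of shEGR2_38.9 control-diet arrays, also gave 2. No share of all genes in these fits is given. The median change was 0.18 over the G2/M genes, 26 of 27 of which were higher, and 0.03 over the G1/S core, beside 0.01 over all genes tested. Mki67, Top2a, Cdk1, Mcm2, Mcm5, Pcna and Rrm2 changed by 0.22, -0.05, 0.17, 0.03, 0.08, -0.08 and 0.10, and none of these passed. The within-batch difference of the G1/S and G2/M medians was -0.38, -0.12 and -0.04 in the 3 pairs of arrays. Of 15 endothelial markers 0 passed (6 lower at an unadjusted p under 0.05, limma). Of 7 pericyte and smooth muscle markers 1 rose, and of 3 neuronal, 4 macrophage and 15 keratinocyte markers 1 each fell. What part these markers had was not tested.

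With shEGR2_40.9 the PA-rich diet went with higher levels of genes of both phases. Of 41 members 16 rose, 6 of G1/S and 10 of G2/M, against 8.95% of all genes called, 3.73% higher and 5.22% lower. At an unadjusted p under 0.05, 28 were higher and 0 lower (limma), with no share of all genes at that threshold given. The median change was 0.31 over the G2/M genes, all 27 of which were higher, and 0.26 over the G1/S core, beside 0.03 over all genes tested. Cenpa read 9.64, 10.17 and 9.79 on the control diet and 10.46, 10.61 and 10.47 on the PA-rich diet, and rose by 0.65 (SE 0.10, adjusted p = 0.000121). Ccnb2 read 8.61, 8.84 and 8.56 and then 9.05, 9.25 and 9.27, and rose by 0.52 (SE 0.09, adjusted p = 0.00057). Neither gene overlapped between diets. The anaphase-promoting complex genes Cdc20 and Ube2c rose by 0.62 (SE 0.14, adjusted p = 0.00583) and 0.57 (SE 0.13, adjusted p = 0.00509), and Birc5 and Cdca8 of the passenger complex by 0.49 each.

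Bub1b and Cenpf rose by 0.43 each, Ccna2 by 0.34 and Cdk1 by 0.27, while Mki67 and Top2a changed by 0.07 and 0.20 and did not pass. Among the G1/S genes Mcm5, Mcm2, Gins2, the transcription factor E2f1, Mcm7 and Rrm2 rose by 0.44, 0.42, 0.40, 0.33, 0.27 and 0.26. Mcm2 read 8.44, 8.62 and 8.57 on the control diet and 8.96, 8.97 and 8.94 on the PA-rich diet, without overlap (SE 0.10, adjusted p = 0.0116). Pcna changed by -0.06 and did not pass. The calls for Cenpa, Ccnb2, Cdc20, Ube2c, Birc5 and Ccna2 held in all alternatives. The count of 16 was 7 without control-diet replicate 1, 10 without control-diet replicate 3, 9 without PA-rich replicate 1 and 8 without PA-rich replicate 2 of shEGR2_40.9. With the scan batch as a block over all arrays 20 rose, 6 of G1/S and 14 of G2/M. No share of all genes is given for any of these fits. With the replicate number as a block Mcm5 and Rrm2 lost their calls (adjusted p = 0.0501 and 0.0575, limma). Endothelial markers moved the other way in this comparison, with 13 of 15 falling (median -1.05) and mean levels per array of 9.38 to 9.70 on the control diet and 8.12 to 8.37 on the PA-rich diet, and 2 of 4 macrophage, 2 of 4 fibroblast and 1 of 15 keratinocyte markers fell. Of 5 Schwann and glial markers 1 rose. Their part in the result was not tested.

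With shEGR2_38.9 4 members rose on the PA-rich diet, Mad2l1, Mcm2, Rrm2 and Plk1, against 22.1% of all genes called, 13.8% higher and 8.3% lower. The share of members called higher, 4 of 41, was thus below that of all genes. The median change was -0.01 over the G2/M genes and 0.16 over the G1/S core, beside 0.07 over all genes tested. Mad2l1, the checkpoint protein MAD2, read 8.93, 8.88 and 8.28 on the control diet and 9.02, 9.23 and 9.31 on the PA-rich diet, and its lowest value came from the array that stood apart. It rose by 0.49 (SE 0.16, adjusted p = 0.0315). Rrm2 read 9.93, 10.04 and 9.78 and then 10.12, 10.33 and 10.14, without overlap, and rose by 0.28 (SE 0.08, adjusted p = 0.0156). Without control-diet replicate 3 of this hairpin 0 members were called, without PA-rich replicate 2 or 3 1 was, and with only the arrays compared 0 were. The shares of all genes called in these fits are not given here. With the replicate number as a block Mcm2 lost its call (adjusted p = 0.0547, limma). Mki67, Top2a, Cdk1, Mcm5 and Pcna changed by -0.06, -0.04, 0.11, -0.11 and -0.00 and did not pass. Endothelial markers fell in 13 of 15 cases here as well (median -1.55), and 6 of 15 keratinocyte markers rose. Of 4 macrophage markers 3 fell, of 7 pericyte and smooth muscle markers 3 fell, of 4 fibroblast markers 1 rose and 1 fell, and of 5 Schwann and glial markers 1 rose. Their part in the result was not tested.

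The diet changes of the 2 EGR2 hairpins were then set against each other. Of 41 members 5 differed, all G2/M genes and all with the higher change in shEGR2_40.9, against 5.57% of all genes called, 1.81% higher and 3.77% lower. They were Ube2c (difference 0.78, SE 0.18, adjusted p = 0.0112), Cenpa (0.67, SE 0.14, adjusted p = 0.00541), Cenpf (0.67, SE 0.19, adjusted p = 0.0375), Ccnb2 (0.64, SE 0.13, adjusted p = 0.00408) and Birc5 (0.63, SE 0.15, adjusted p = 0.0131). Ube2c read 10.03, 10.04 and 9.70 on the control diet and 10.35, 10.54 and 10.58 on the PA-rich diet with shEGR2_40.9. With shEGR2_38.9 it read 10.18, 9.92 and 10.41 and then 9.88, 9.96 and 10.05, so that it was higher on the PA-rich diet with 1 hairpin and overlapped between diets with the other. The median difference was 0.24 over the G2/M genes and 0.08 over the G1/S core, beside -0.03 over all genes tested.

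The calls for Ccnb2, Cenpa and Ube2c held in all alternatives. That of Birc5 was lost with only the arrays compared (adjusted p = 0.057). Without shEGR2_38.9 control-diet replicate 3 5 members differed, and Cenpf was not among them. Cenpf lost its call also without shEGR2_40.9 control-diet replicate 1 or 3 or PA-rich replicate 2 or 3, and without each shEGR2_38.9 PA-rich array. It was lost too without the filter on dim genes, with only the arrays compared and with the mean of all probe sets (limma, adjusted p up to 0.15). In all, the call of Cenpf was lost in 11 of 18 alternatives. The count was 8 in the fit with scan batch blocks and 8 without shEGR2_38.9 control-diet replicate 2. The shares of all genes called in the alternative fits are not given here. Between the hairpins 3 of 7 pericyte and smooth muscle markers had the higher diet change in shEGR2_40.9, and 4 of 15 keratinocyte and 1 of 15 endothelial markers the lower. Of 4 macrophage markers 1 had the higher change, of 4 fibroblast markers 1 the higher and 1 the lower, and of 5 Schwann and glial markers 1 the lower. Their part in the result was not tested.

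**Figure D4:**
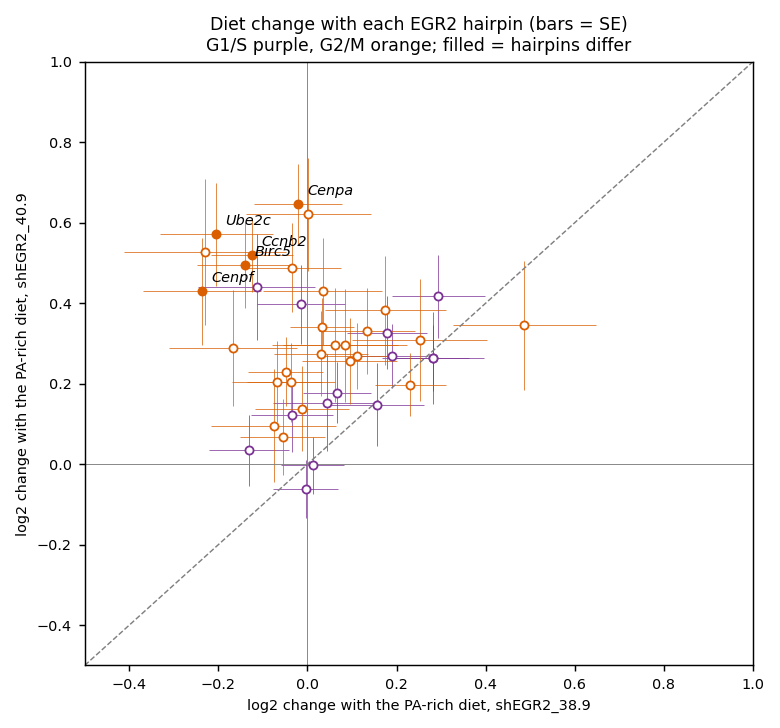
Log2 change of each of the 41 tested genes with the PA-rich diet in shEGR2_38.9 (x axis) and shEGR2_40.9 (y axis), with standard errors; G1/S genes are purple, G2/M genes orange, and filled points mark genes whose change differed between the hairpins. The 5 filled points, Ube2c, Cenpa, Cenpf, Ccnb2 and Birc5, lie above the dashed line of equal change.

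With shGAL 3 members rose on the PA-rich diet, against 1.94% of all genes called, 1.33% higher and 0.608% lower. Rrm2 read 9.40, 9.11 and 9.42 on the control diet and 9.75, 9.78 and 9.79 on the PA-rich diet, without overlap, and rose by 0.46 (SE 0.08, adjusted p = 0.00354). Cdt1 read 9.80, 9.73 and 9.93 and then 10.10, 10.29 and 10.32, and rose by 0.42 (SE 0.09, adjusted p = 0.0135). Cenpe read 7.47, 7.39 and 6.94 and then 7.58, 7.91 and 8.24, and rose by 0.64 (SE 0.14, adjusted p = 0.0179). None of the 3 genes overlapped between diets. All 9 G1/S core genes were higher (median 0.22), as were 24 of 27 G2/M genes (median 0.14), beside a median of -0.01 over all genes tested. Mki67, Top2a, Cdk1, Mcm2, Mcm5 and Pcna changed by 0.14, 0.27, 0.23, 0.20, 0.14 and 0.21, and none of these passed. The call of Rrm2 held without each array. The count of 3 was 1 without shGAL PA-rich replicate 2 or 3, 5 without shGAL control-diet replicate 1 or shEGR2_38.9 control-diet replicate 3, and 0 with only the arrays compared. No share of all genes in these fits is given. Endothelial markers did not pass in 15 of 15 cases (1 higher at an unadjusted p under 0.05, limma), with a median change of 0.02, and 1 of 15 keratinocyte markers fell.

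The diet change itself did not differ from that with PLKO for any member at the threshold. For the mean of the EGR2 hairpins 0 of 41 members were called, against 9.74% of all genes (5.18% higher, 4.57% lower), and 2 were at an unadjusted p under 0.05, both higher (limma). The nearest were Mcm2 (difference 0.33, SE 0.13, adjusted p = 0.11) and Mcm4 (0.37, adjusted p = 0.103). For shGAL 0 of 41 were called, against 1.33% of all genes (1.01% higher, 0.321% lower), with 6 higher and 2 lower at an unadjusted p under 0.05 (limma). For neither comparison is the share of all genes at the unadjusted threshold given. The largest difference there was that of Mcm4 (0.53, adjusted p = 0.117), and Rrm2 had 0.37 (SE 0.12, adjusted p = 0.128). All 9 G1/S core genes had a higher diet change than with PLKO in both comparisons, with medians of 0.12 and 0.23, while the G2/M medians were -0.07 and -0.03. The 2 comparisons share the PLKO arrays. Among the markers, 13 of 15 endothelial, 3 of 4 macrophage, 2 of 7 pericyte and smooth muscle and 1 of 4 fibroblast markers had a lower diet change with the EGR2 hairpins than with PLKO, and 3 of 15 keratinocyte and 1 of 3 neuronal markers a higher one. With shGAL 1 of 15 endothelial and 1 of 3 neuronal markers had a higher one. Their part was not tested. A single member was called for the EGR2 hairpins without PLKO PA-rich replicate 3 or shGAL control-diet replicate 2, and 1 for shGAL without shGAL control-diet replicate 3.

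Set side by side, the G1/S core and the G2/M genes parted most in the comparison of the EGR2 hairpins with PLKO on the control diet, where the G1/S median change lay 0.41 below the G2/M median. On the PA-rich diet the same difference was -0.22. For shGAL against PLKO it was -0.22 on the control diet, where both medians were negative, and 0.08 on the PA-rich diet. For the diet it was -0.14 with PLKO, -0.05 with shEGR2_40.9, 0.17 with shEGR2_38.9 and 0.08 with shGAL. For scale only, the per-array mean of the G1/S core minus that of the G2/M genes had a pooled SD of 0.12 between arrays of a group. That SD is for means on single arrays. The differences above are of median changes between groups, whose spread it does not measure. These differences describe the chosen members and were not tested. The diet value of shGAL was -0.06 without shGAL control-diet replicate 2, and that of shEGR2_40.9 was -0.19 without its control-diet replicate 2 and -0.18 without its PA-rich replicate 1.

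**Figure D5:**
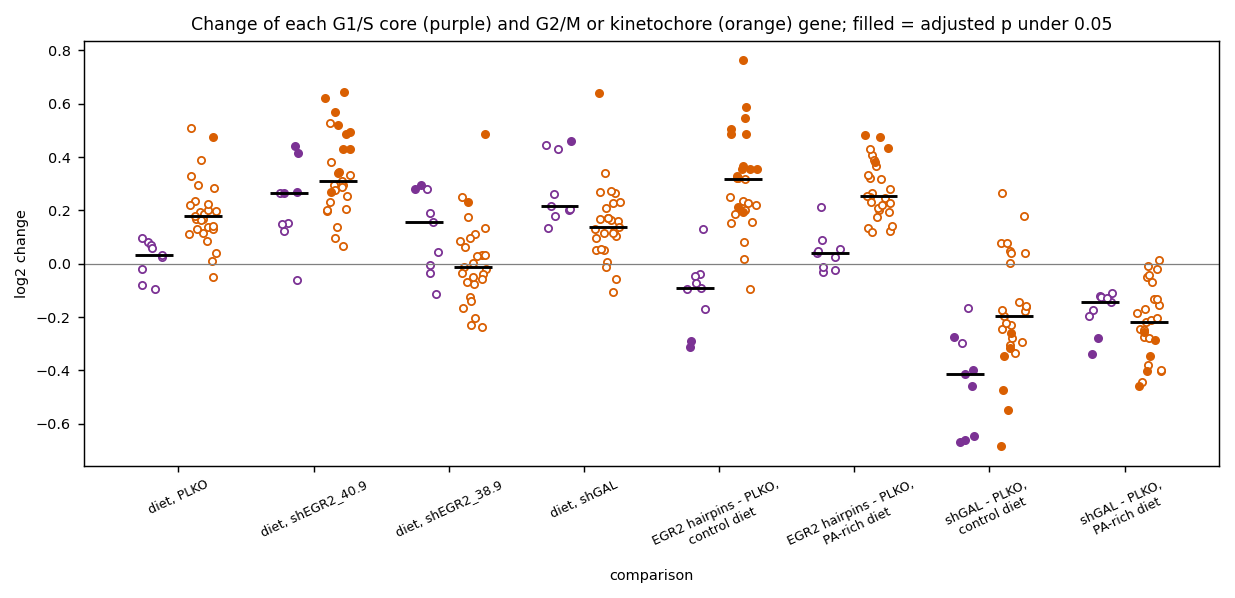
Log2 change of each of the 9 G1/S core genes (purple) and 27 G2/M and kinetochore genes (orange) in 8 comparisons; filled points have an adjusted p under 0.05 in limma and black bars are medians. The medians lie farthest apart for the EGR2 hairpins against PLKO on the control diet, at -0.09 and 0.32, and both lie below 0 for shGAL against PLKO on either diet.

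Several members had more than 1 probe set, which gives a further reading of the same gene on the same arrays. Of 43 genes 26 had several. The called gene and comparison pairs had 49 readings of a further probe set above the floor, where Foxm1 counts once for each of its probe sets. The change had the same sign in 47 of these readings. The size could differ: on control diet, with the EGR2 hairpins, a further probe set of Cenpe changed by 0.27 against 0.76, that of Cenpf by 0.46 against 0.59, that of Bub1b by 0.52 against 0.49 and those of Foxm1 by 0.08 and 0.08 against 0.36. With shGAL, under control diet, a further probe set of Rrm2 changed by -0.56 against -0.64, and that of Mcm3 by -0.12 against -0.40. For the diet with shEGR2_40.9, a further probe set of Cenpa changed by 0.17 against 0.65, and that of Bub1b by 0.47 against 0.43. For the difference of the diet change between the EGR2 hairpins, that of Cenpa gave 0.34 against 0.67 and that of Cenpf 0.26 against 0.67. The exceptions in sign were both of Tyms with shGAL.

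Further genes of the same pathways gave the following counts, from lists of 36 replication genes, 39 mitosis genes and 24 genes of G1 control and cell cycle brakes that were above the floor. For the EGR2 hairpins on the control diet, where 10.8% of all genes were called higher and 14.5% lower, 12 of 39 mitosis genes rose, among them Bora (0.60), an activator of Aurora A, Cep55 (0.56), an abscission protein, Nek2 (0.52), a centrosome kinase, Racgap1 (0.47), of the central spindle, and Kif2c (0.43), a microtubule-depolymerising kinesin. Of 36 replication genes 4 rose and 2 fell, the helicase cofactor genes Gins1 (-0.35) and Gins4 (-0.24), shares near or below those of all genes. Of the brakes Gadd45a fell by 0.52 and Btg2 by 0.38, with 4 of 24 falling and 2 rising in all, again near or below the shares of all genes. The medians were 0.16, 0.03 and -0.04 for mitosis, replication and brakes, beside -0.06 over all genes. On the PA-rich diet 1 mitosis gene rose, Knstrn (0.42), which encodes a kinetochore protein.

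For shGAL on the control diet, where 9.84% of all genes were called lower and 7.15% higher, 11 of 36 replication genes fell, with Tipin (-0.69), of the fork protection complex, Gmnn (-0.65), the geminin that inhibits Cdt1, Timeless (-0.50), Rfc3 (-0.49), of the clamp loader, and Tk1 (-0.47), thymidine kinase. Of 39 mitosis genes 8 fell, led by the kinetochore genes Cenpk (-0.87) and Spc25 (-0.66), and Fzr1 (0.42), the Cdh1 activator of the anaphase-promoting complex, rose. The CDK inhibitor gene Cdkn2b rose by 0.68 (SE 0.10, adjusted p = 5.39e-05) and Cdkn1a, the p21 gene, by 0.22 (SE 0.06, adjusted p = 0.0101), while Ccng1, Btg2 and Cdk4 fell by 0.50, 0.38 and 0.23. The medians were -0.19, -0.19 and -0.03 for replication, mitosis and brakes, beside -0.01 over all genes. On the PA-rich diet (7.6% of all genes higher and 4.77% lower) Cdkn2b was also higher with shGAL (0.79, SE 0.10, adjusted p = 7.62e-06), 5 replication genes fell and 1 rose, and 7 mitosis genes fell and 1 rose. In the list of 24 genes of G1 control and brakes, more genes were lower than higher there. At an unadjusted p under 0.05, 9 were lower and 4 higher (limma), with no share of all genes at that threshold given.

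For the diet with shEGR2_40.9 (3.73% of all genes higher) 8 of 36 replication genes and 8 of 39 mitosis genes rose. The former included Rfc2 (0.53), Gins1 (0.50) and Tk1 (0.38), and the latter Cdc25b (0.80), a phosphatase that activates CDK1, Knstrn (0.70), Cdca3 (0.60), a trigger of mitotic entry, and Pttg1 (0.55), which encodes securin. With shEGR2_38.9, where 13.8% of all genes were higher and 8.3% lower, 4 of 36 replication genes rose and 1 fell, 1 of 39 mitosis genes rose and 1 fell, and 4 of 24 brakes rose and 2 fell, among them Gadd45a (0.53) and Cdkn1b (-0.41), the p27 gene. The counts for replication and mitosis were below the shares of all genes, and those for the brakes near them. With shGAL (1.33% of all genes higher) 4 of 36 replication genes rose, E2f7 (0.51), Gmnn (0.47), Uhrf1 (0.40) and Rpa2 (0.29), and 1 mitosis gene, the condensin subunit Smc2 (0.53). With PLKO (0.371% of all genes higher) 1 replication gene, E2f8 (0.32), and 2 mitosis genes, Kif15 (0.39) and Fzr1 (0.31), rose. The diet change of Gmnn was higher than with PLKO for shGAL (difference 0.55, SE 0.12, adjusted p = 0.0242), and that of Kif15 was lower with the EGR2 hairpins (-0.50, SE 0.11, adjusted p = 0.00394) and with shGAL (-0.53, SE 0.13, adjusted p = 0.0341).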

How the data were processed

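The deposited values are log2 expression values that the authors made with RMA (affy), per the submitters' processing notes; its version is not given in the sources used here. RMA corrects background, normalizes between arrays by quantiles and summarises probes, so values are relative between arrays and hold no count depth; the number of arrays limits their precision. Total RNA was amplified to cDNA before labelling, per the labels' protocols.

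Of 45141 probe sets, 28898 with 1 gene symbol were used, giving 17097 genes; each gene took its brightest probe set by mean. A floor of 6.27, the 40th percentile of probe set means, left 11844 genes to test. Differences were fitted with limma 3.58.1 in R 4.3.3, as 1 model of 8 group means over 24 arrays (residual degrees of freedom 16, prior 6.21), with 2-sided moderated tests adjusted (Benjamini-Hochberg) in each of 11 comparisons for all 11844 genes, at a threshold of 0.05. The procedure was tested on simulated data. Promoter words were counted in RefSeq windows.

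Members past the threshold are named, and where over 12 passed, the 12 with the largest change of the same sign in each replicate number are given with values; up to 5 genes per pathway list follow the same rule. Some further members are given with their values. The members, lists and alternatives were chosen with earlier results of these data known. Per the labels, same-number arrays of the 2 diets of a hairpin share a scan batch and are paired in that sense; their residuals correlated at -0.03 to 0.24, with 7 of 12 pairs above 0.1. Across hairpins a number marks the same batch for some pairs of hairpins and different batches for others. Alternatives were the replicate number or scan batch as a block, no filter, only the arrays compared, renewed quantile normalization, the mean of all probe sets, and each array left out. Counts under an alternative stand without the share of all genes called in that fit. They do not show whether the members or all genes moved. Counts of members or markers at an unadjusted p also stand without a share of all genes.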

Additional observations from a re-analysis of the deposited data

Results flagged for a closer look

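For 5 members the diet change differed between the EGR2 hairpins, tested as a difference of differences in limma over all genes. The diet change with shEGR2_40.9 exceeded that with shEGR2_38.9 by 0.78 for Ube2c, by 0.67 for Cenpa, by 0.67 for Cenpf, by 0.64 for Ccnb2 and by 0.63 for Birc5, all on the log2 scale, against 1.81% of all genes called in that direction. Their changes were 0.57, 0.65, 0.43, 0.52 and 0.49 with shEGR2_40.9 and -0.20, -0.02, -0.24, -0.12 and -0.14 with shEGR2_38.9. In shEGR2_38.9 the control-diet replicate 3, which stood apart in array mean and in the ratio of Gapdh probe sets, gave the highest control-diet reading of Ube2c (10.41), Cenpf (9.81) and Birc5 (10.34). Its part in the difference is given by the values without it, where 5 members differed and Cenpf lost its call.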

How the results depend on the processing

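Of 75 calls of a member in a comparison, 27 held under every alternative run, 48 were lost in at least 1 and 0 reversed. By setting, 3 were lost with the replicate block, 13 with the scan batch as a block, 6 without the filter on dim genes, 22 with only the arrays compared, 4 with renewed quantile normalization and 14 with the mean of all probe sets. The count of called members for the diet was 2 with PLKO (renewed quantile normalization) and 0 (mean of all probe sets), 0 with shEGR2_38.9 (only the arrays compared) and 2 (renewed quantile normalization), and 0 with shGAL (only the arrays compared) and 5 (mean of all probe sets). The difference of the diet change between the EGR2 hairpins and PLKO gave 1 with only the arrays compared, and that between both EGR2 hairpins 8 each with the scan batch as a block, renewed quantile normalization and the mean of all probe sets. On the PA-rich diet the EGR2 hairpins against PLKO gave 1 (scan batch block) and 15 (only the arrays compared), and shGAL against PLKO 13 and 15. The cause was not tested, except that only the arrays compared are fewer arrays.

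The replicate number as a block gave 2, 14, 3 and 3 called members for the diet with PLKO, shEGR2_40.9, shEGR2_38.9 and shGAL, 0, 0 and 7 for the diet differences, 15 higher and 3 lower and then 6 for the EGR2 hairpins on the control and PA-rich diet, and 16 and 8 for shGAL. Each group holds 1 array of each replicate number, so by design this block leaves every change as it was. The phase differences with it, such as -0.41 for the EGR2 hairpins on the control diet, were therefore those without it. Within a hairpin the number marks the scan batch, but the fit took 1 effect per number over all hairpins. This fit is thus neither a correction for scan batch nor a pairing of the diets. The block ended 3 calls and, as the changes stay the same, could reverse none. It added calls where its count is above the unblocked 1 (diet with PLKO), 5 (between the EGR2 hairpins) and 4 (EGR2 hairpins, PA-rich diet).

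With 1 array left out, the counts ranged from 0 to 2 (diet with PLKO), 7 to 20 (shEGR2_40.9), 0 to 5 (shEGR2_38.9), 1 to 5 (shGAL), 0 to 1 for both diet differences against PLKO, 4 to 8 between the EGR2 hairpins, 9 to 19 and 1 to 7 for the EGR2 hairpins against PLKO on the control and PA-rich diet, and 12 to 19 and 2 to 11 for shGAL. The G1/S minus G2/M medians ranged from -0.18 to -0.06, -0.19 to -0.01, 0.09 to 0.20 and -0.06 to 0.18 for the diet in the same order, 0.11 to 0.21, 0.17 to 0.35 and -0.28 to -0.08 for the diet differences, -0.45 to -0.35 and -0.26 to -0.19 for the EGR2 hairpins, and -0.32 to -0.12 and 0.00 to 0.12 for shGAL.

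Levels depend on which probe sets enter. In the order PLKO, shEGR2_40.9, shEGR2_38.9 and shGAL, control diet before PA-rich, the G1/S mean was 9.3, 9.31, 9.16, 9.36, 9.29, 9.36, 8.89 and 9.16 without the filter and 9.12, 9.15, 8.98, 9.18, 9.07, 9.2, 8.72 and 8.98 with the mean of all probe sets. The G2/M mean was 8.3, 8.47, 8.52, 8.82, 8.59, 8.59, 8.17 and 8.29 with the latter. Renewed quantile normalization gave a G1/S mean of 9.5 for shEGR2_40.9 and 9.68 for shEGR2_38.9 on the control diet. The CHR share of the G2/M windows was 34.8% before the start. With 3 arrays a group, small changes cannot be told from the spread, and genes near the floor have compressed changes.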
